A study of Homo sapiens with 12 samples.

Results

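The collagen genes were the rows of the count table whose symbol reads COL, a number, A and a number. There were 44 such rows among 26485, and 41 of them passed the filter on low counts and were tested. COL1A2 lies near PEG10, the gene carried by the transfected plasmids, and was treated apart from the other 40 tested genes. RNA was measured in HEK293 cells, an established human embryonic kidney line labelled wild type, in 4 groups of 3 libraries. Each group had been transfected with 1 µg of a CMV-driven plasmid and collected at 48 hr. The plasmids encoded full-length PEG10 (gag-pol), the shorter PEG10 product of the first reading frame (gag), the nucleocapsid part of gag (NC), or HA-tagged LifeAct-Dendra2, a fluorescent actin-binding peptide used as control. The control cells kept their own PEG10 and received no PEG10 plasmid, and the share of transfected cells in each culture was not known here. The comparison asks which RNAs change when PEG10 or a part of it is in excess, and whether gag-pol, gag and NC differ.

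Collagens are extracellular proteins in which 3 chains wind around each other. The helix needs glycine at every turn of a Gly-X-Y repeat, and the chains are hydroxylated, folded and trimerized in the endoplasmic reticulum, secreted, trimmed and crosslinked. Fibrillar collagens form the ropes of connective tissue, the type IV chains build the sheet of basement membranes, type VI makes beaded filaments, and the fibril-associated (FACIT), transmembrane and multiplexin groups decorate fibrils, cell surfaces and basement membranes. By this grouping the table held 11 fibrillar, 6 basement membrane, 3 short-chain, 5 beaded filament, 10 FACIT, 4 transmembrane and 2 multiplexin genes, the anchoring fibril gene COL7A1 and 2 others (COL26A1 and COL28A1).

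The repeat is visible in the gene structure. Of 1913 internal coding exons in the canonical transcripts of the 44 genes (GENCODE 44, GRCh38), 64.1% had a length divisible by 9 bases, against 14.3% over 15137 protein-coding genes of the table. In the fibrillar genes the share was 84.2%, and 48.64% of their internal coding exons were exactly 54 bases long, against 0.75%. Coding exon 15 of COL11A2, a fibrillar gene whose RNA was lower with gag-pol and with NC, is printed as an example of such a 54-base unit. It lies at chr6:33179231-33179284 on the minus strand of GRCh38, and the capitals mark its 6 glycine codons, 1 every 9 bases.
COL11A2 coding exon: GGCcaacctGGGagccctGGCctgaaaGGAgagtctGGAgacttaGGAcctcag

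COL4A1 and COL4A2 are transcribed away from each other, and their RNAs kept a similar ratio in every library, so the promoter between them is printed. The stretch is the RefSeq promoter of COL4A2 at chr13:110307034-110307333, plus strand, GRCh38.p14. The capitals run from the COL4A1 start to the COL4A2 start, which are 127 bases apart. The letters CCAAT and GGGCGG (GC box), searched on both strands, each occurred 1 time in this window, and TATAAA did not occur. Over 35116 promoters of the same length these motifs were found in 34.6%, 45.0% and 11.5%.
COL4A2 promoter: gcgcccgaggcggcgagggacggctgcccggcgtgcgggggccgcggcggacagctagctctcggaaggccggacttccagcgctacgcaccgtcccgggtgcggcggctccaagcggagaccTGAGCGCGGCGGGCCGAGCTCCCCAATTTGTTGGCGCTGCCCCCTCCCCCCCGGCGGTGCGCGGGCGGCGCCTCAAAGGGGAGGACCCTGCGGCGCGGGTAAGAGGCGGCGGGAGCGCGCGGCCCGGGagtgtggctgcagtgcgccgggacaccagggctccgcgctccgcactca

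The libraries held 30625725 to 45316749 counts, and gag replicate 1 was the smallest. PEG10 itself had 8404 to 12638 normalized counts in the control libraries. The gag-pol libraries had 1089350 to 2835980, the gag libraries 1409240 to 2439090 and the NC libraries 91543 to 146122, all above control. Counts per gene do not tell gag-pol from gag. A normalized count is the count scaled to a common library size of 37579187. The 9 HEK293 markers (vimentin, keratins 8 and 18, neurofilament and kidney progenitor genes) were all expressed. Of 12 fibroblast markers, DCN, LUM, POSTN, THY1 and MFAP5 stayed under 10 counts in every library. Another 6 of the 12, FN1 and FBN1 among them, passed the filter on low counts. In RNA from whole cultures, fewer cells expressing a gene and less RNA per cell cannot be told apart.

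HEK293 cells transcribed many collagen genes, but not for every type the full set of partner chains. In control, COL6A1 had the highest level, 90.9 ± 20.6 RPKM (SD, n = 3). RPKM is the count per kilobase of canonical transcript, scaled to library size so that levels of genes can be compared. COL4A2 followed with 40.6 ± 8.36 RPKM, then COL6A2 with 40.4 ± 12.9, COL2A1 with 33.6 ± 6.27, COL18A1 with 29.2 ± 8.56 and COL4A1 with 26.9 ± 5.19 RPKM. From COL4A2 to COL4A1 each neighbour overlapped the next over the 3 control libraries, whereas COL6A1 stood above all of them. COL14A1 had the highest level of the FACIT genes at 15.4 ± 5.65 RPKM, COL13A1 of the transmembrane genes at 4.04 ± 0.955 RPKM, and COL8A2 of the short-chain genes at 0.102 ± 0.0488 RPKM. COL7A1 was at 4.30 ± 2.29 RPKM and COL26A1 at 2.55 ± 0.641 RPKM.

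Partner chains were unequal in some types and similar in others. COL6A3, whose chain joins those of COL6A1 and COL6A2 in type VI collagen, was at 0.0370 ± 0.0180 RPKM in control. COL1A1, which encodes the chain that pairs with that of COL1A2 in type I collagen, was at 5.16 ± 1.82 RPKM and COL1A2 at 0.0488 ± 0.00212 RPKM. COL11A2 was at 3.52 ± 1.45 RPKM, while its partner COL11A1 was not tested, with 16 counts over all 12 libraries. The other untested genes were COL10A1, with 38 counts in all, and COL6A5, with 22. By contrast, the level of COL4A1 per length was 0.621 to 0.794 of that of COL4A2 in each of the 12 libraries, and the ratio of COL6A1 to COL6A2 ran from 1.89 to 2.79. The ratio of COL4A4 to COL4A3 ran from 1.26 to 1.87, and that of COL4A6 to COL4A5 from 0.931 to 1.74. The 44 genes together took 0.115% to 0.232% of a library's counts. As the plot of normalized counts by library shows, the spread between replicates of a construct often exceeded that between constructs.

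**Figure D1:**
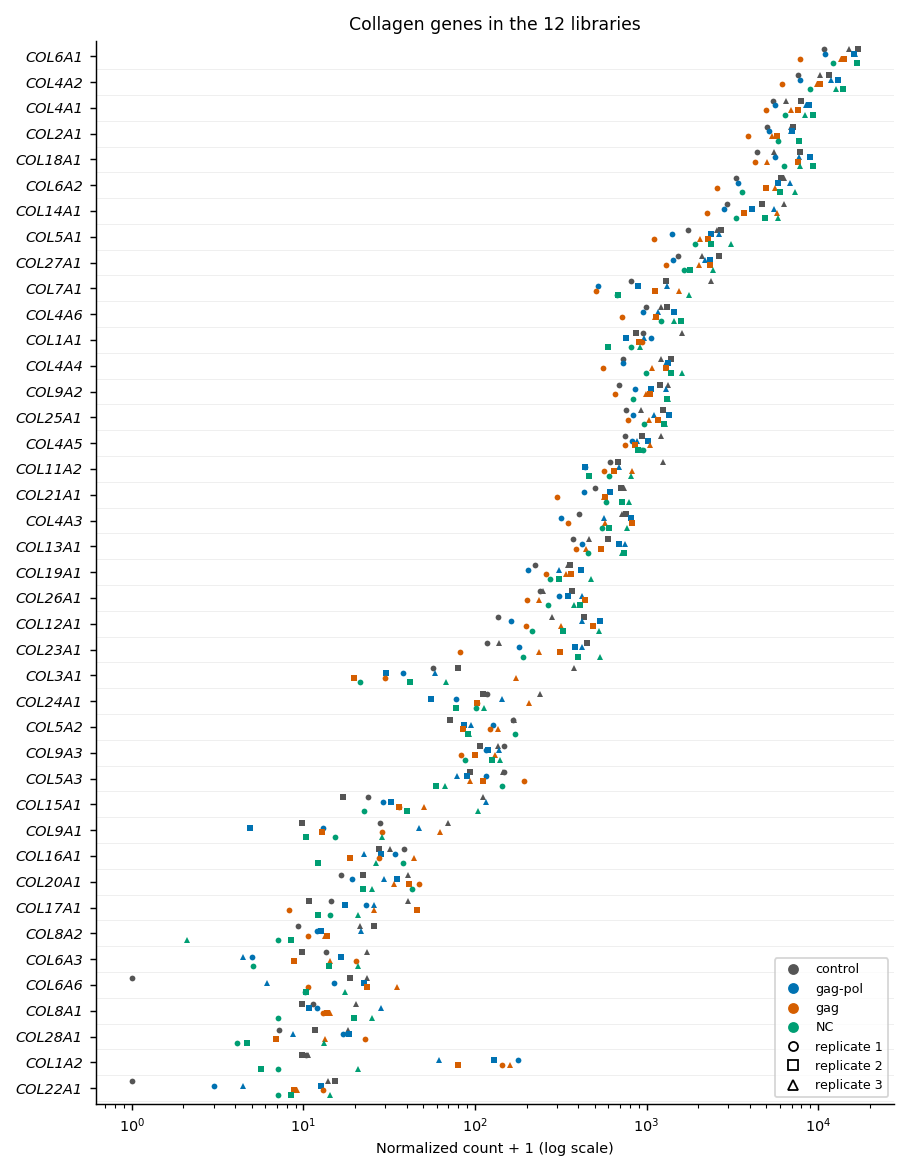
Normalized counts plus 1 (log scale) of the 41 tested collagen genes in the 12 libraries, ordered by their mean in control. Colors give the construct and shapes the replicate number. Circles (replicate 1) lie to the left of the other shapes for most of the abundant genes, and COL1A2 is the gene whose gag-pol and gag libraries stand clear of control and NC.

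COL1A2, which encodes the second chain of type I collagen, was far higher with gag-pol and with gag than in control, and not with NC. Its counts were 9, 10 and 9 in control, 177, 131 and 71 with gag-pol, 118, 80 and 154 with gag and 6, 5 and 18 with NC. The gag-pol and gag libraries overlapped neither control nor NC. The log2 fold change against control was 3.70 ± 0.476 (SE, n = 3) with gag-pol and 3.71 ± 0.475 with gag (adjusted p = 0.000127 and 0.000294, edgeR quasi-likelihood test). With NC it was 0.08, with an interval of -1.15 to 1.30 (adjusted p = 0.951). NC differed from gag by -3.63 and from gag-pol by -3.62 on the log2 scale (adjusted p = 0.000261 and 0.00310). Without the replicate number in the model the folds were 3.70 and 3.75 against control, with adjusted p = 0.0889 and 0.0792, and -3.64 and -3.59 for NC against gag and gag-pol, with adjusted p = 0.153 and 0.172. Dropping NC replicate 1, or replicate number 1 from all groups, gave -3.21 and -3.08 for NC against gag-pol (adjusted p = 0.0916 and 0.246, edgeR).

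COL1A2 lies at chr7:94394895-94431227 on the plus strand (GRCh38, 52 exons in the canonical transcript), 225.1 kb before PEG10. Within each of the PEG10 groups, the order of the libraries by COL1A2 was their order by PEG10. With gag-pol both were highest in replicate 1 and lowest in replicate 3, and with gag and with NC both were highest in replicate 3 and lowest in replicate 2. With NC, COL1A2 had only 6, 5 and 18 counts, beside 9, 10 and 9 in control, so its order and ratios there rest on few reads. In control, normalized COL1A2 (9.34, 8.87 and 9.68) did not follow PEG10 (11820, 14243 and 7817 counts). Scaled to 1000000 PEG10 counts, COL1A2 had 62.9, 96.0 and 56.0 counts in the gag-pol libraries, 65.0, 55.6 and 65.0 in the gag libraries, and 55.9, 50.8 and 136 in the NC libraries. In control, where no PEG10 plasmid was given, the ratio was 761, 702 and 1151. The longest run of bases shared by any COL1A2 transcript and any PEG10 transcript was 15, and that for COL1A1 was 13. For CASD1 and SGCE, the genes between COL1A2 and PEG10 described below, it was 13 and 219. Only annotated transcripts were searched, so other plasmid sequence was not covered. Whether PEG10 abundance has a part in the COL1A2 counts was not tested.

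CASD1, which encodes a sialic acid O-acetyltransferase and lies 99.3 kb before PEG10, rose with the same constructs. Its normalized counts were 236, 255 and 271 in control, 632, 397 and 408 with gag-pol, 585, 448 and 698 with gag and 340, 319 and 268 with NC. No gag-pol or gag library overlapped a control or NC library. The log2 fold changes against control were 0.89 ± 0.174 for gag-pol, 1.17 ± 0.173 for gag and 0.28 ± 0.175 for NC (adjusted p = 0.00264, 0.000750 and 0.317, edgeR). SGCE, which overlaps PEG10 on the opposite strand and encodes epsilon-sarcoglycan, had log2 fold changes of -0.23, -0.01 and -0.01. PPP1R9A, 237.5 kb after PEG10, had -0.17, 0.00 and -0.14, and neither gene was called in a comparison with control.

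**Figure D2:**
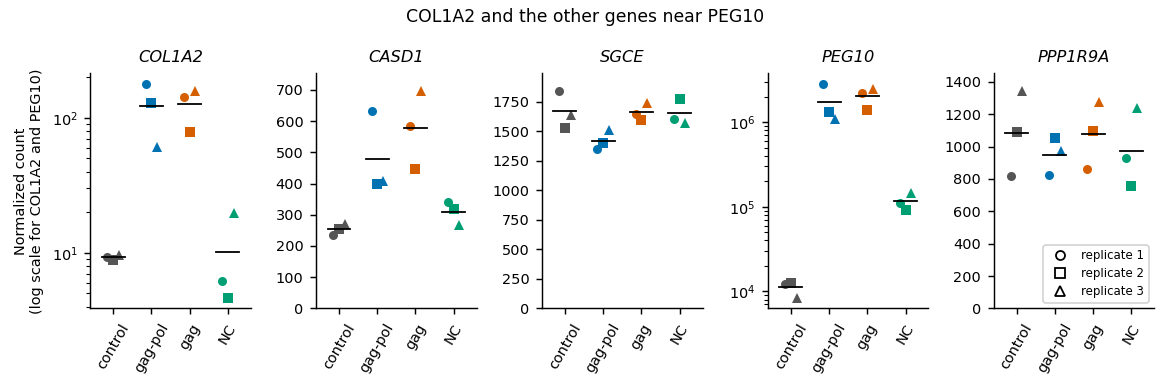
Normalized counts of COL1A2 and of the other genes within 500 kb of PEG10 in the 12 libraries. Points are libraries, shapes the replicate number, bars the mean of a group, and the axes of COL1A2 and PEG10 are logarithmic. COL1A2 and CASD1 are higher in all 6 gag-pol and gag libraries than in control and NC, while SGCE and PPP1R9A overlap across groups.

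Among the other 40 tested genes, gag-pol changed 5 against control, 1 higher (2.5%) and 4 lower (10%). Over all 17176 genes tested, 5.48% were higher and 5.83% lower. All 5 differences had the same direction in each replicate number, and the groups overlapped for every one of them. The 5 were called by a fit that holds the replicate number, so the shared direction adds no separate evidence. The median log2 fold change of the 40 genes was -0.01, against 0.00 over all genes. COL18A1, the multiplexin of basement membranes whose cleavage releases endostatin, was the gene that rose. It had 4432, 7841 and 5532 normalized counts in control and 5608, 8939 and 7732 with gag-pol. The log2 fold change was 0.34 ± 0.0795 (SE, n = 3, adjusted p = 0.00832, edgeR). Without gag-pol replicate 3 it was 0.27 (adjusted p = 0.0666), and without replicate number 1 or 3 it was 0.35 and 0.25 (adjusted p = 0.116 and 0.0700).

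The 4 genes that fell with gag-pol were 3 fibrillar genes and COL7A1. COL11A2, a chain of type XI collagen of cartilage fibrils, had 614, 683 and 1251 normalized counts in control and 438, 437 and 688 with gag-pol, so only the highest gag-pol library reached the control range. Its log2 fold change was -0.68 ± 0.130 (adjusted p = 0.00227), and it remained called by edgeR without each library or replicate number in turn. COL7A1, the collagen of anchoring fibrils under epithelia, had 814, 1293 and 2367 in control and 523, 888 and 1319 with gag-pol. Its log2 fold change was -0.68 ± 0.155 (adjusted p = 0.0127), and without control replicate 3 it was -0.64 (adjusted p = 0.0998). COL24A1, a minor fibrillar chain, had 117, 110 and 240 in control and 76.5, 54.6 and 144 with gag-pol. It changed by -0.78 ± 0.229 on the log2 scale (adjusted p = 0.0307) and passed in 7 of 15 refits, each made on fewer libraries (every library and every replicate number dropped in turn).

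COL3A1, the chain of type III collagen, had the largest called change of the 40 genes against control, and an uneven control group. Its normalized counts were 56.1, 79.0 and 376 in control, 37.3, 29.3 and 57.6 with gag-pol, 29.0, 18.6 and 172 with gag and 20.5, 40.9 and 67.2 with NC. Replicate 3 of control and of gag stood apart from the rest. The log2 fold change was -1.63 ± 0.410 for gag-pol and -1.65 ± 0.407 for NC (adjusted p = 0.0170 and 0.0167, edgeR). Without control replicate 3 it was -1.29 and -1.32 (adjusted p = 0.113 and 0.131), and gag-pol gave -1.10 (adjusted p = 0.124) once its own replicate 3 was dropped. NC gave -1.55 and -1.27 (adjusted p = 0.0719 and 0.113) once its own replicate 1 or 3 was dropped. Without replicate number 3 both were weaker, -1.01 and -1.13 (adjusted p = 0.244 and 0.178), and without number 1 that of NC was -1.72 (adjusted p = 0.0699).

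The number of genes called with gag-pol depended on single libraries. A refit called 2 with control replicate 3 dropped, 3 and 1 with gag-pol replicate 1 or 3 dropped, and 2 and 1 with replicate number 1 or 3 dropped from all groups. Without the replicate number in the model, edgeR called 0 of the 40 genes here and in every other comparison of constructs. The share of all genes called in that fit, in the refits and by DESeq2 is not given here. Those counts therefore cannot be read as particular to collagen genes.

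With gag, 1 of the 40 collagen genes other than COL1A2 differed from control. COL2A1, the main chain of cartilage fibrils, fell from 5014, 7174 and 6968 normalized counts in control to 3877, 5765 and 5412, by -0.35 ± 0.0691 on the log2 scale (adjusted p = 0.0105). None of the 40 rose. The share of all genes was 0.699% higher and 0.384% lower. At an unadjusted p under 0.05, edgeR had 12 of the 40 genes, and DESeq2 called 5. For both of these counts the share of all genes is not given here, so they have no background. The median of the 40 was -0.15, against 0.00 over all genes, and 29 of 40 fitted changes were negative. Within replicate numbers 1, 2 and 3 the median difference was -0.17, -0.12 and -0.22. Dropping control replicate 1 or 2, gag replicate 1 or replicate number 1 left 0 genes. Dropping control replicate 3 gave 4, gag-pol replicate 3 gave 3, gag replicates 2 and 3 gave 3 and 2, and NC replicate 2 or replicate number 3 gave 5.

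With NC, 8 collagen genes differed from control, 4 higher and 4 lower (10% each), against 6.04% and 5.15% of all genes. The genes that rose were COL18A1, COL13A1, COL4A1 and COL4A2. COL18A1 had 6361, 9327 and 7893 normalized counts with NC, a log2 fold change of 0.43 ± 0.0795 (adjusted p = 0.00252), called in 14 of the 15 refits on fewer libraries. COL4A1 and COL4A2 encode the ubiquitous chains of basement membrane type IV collagen. COL4A1 had 5438, 7974 and 6457 in control and 6417, 9390 and 8338 with NC, and COL4A2 had 7646, 11633 and 10250 in control and 8942, 14014 and 12698 with NC. Each replicate number was higher with NC, and the groups overlapped. Their log2 fold changes were 0.28 ± 0.0743 and 0.27 ± 0.0716 (adjusted p = 0.0193 and 0.0199, edgeR), and they were called in 8 and 9 of the refits. COL13A1, a transmembrane collagen of cell junctions, changed by 0.40 ± 0.131 (adjusted p = 0.0482), and by 0.40 with an adjusted p = 0.0540 when PEG10 was left out of the table. It was called in 1 of the 15 refits.

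The genes that fell with NC were COL1A1, COL3A1, COL7A1 and COL11A2. COL1A1 had 958, 870 and 1611 normalized counts in control and 809, 599 and 917 with NC, a log2 fold change of -0.55 ± 0.145 (adjusted p = 0.0224). Control replicate 3 was again the highest library, and without it the change was -0.31 (adjusted p = 0.207). COL7A1 changed by -0.52 ± 0.155 and COL11A2 by -0.41 ± 0.129 (adjusted p = 0.0431 and 0.0429, edgeR), and without control replicate 3 these were -0.49 and -0.27 (adjusted p = 0.241 and 0.317). COL7A1 changed by -0.28 (adjusted p = 0.121) without NC replicate 2 and passed in 5 of the 15 refits, and COL11A2 passed in 7. The median of the 40 genes was 0.10, against 0.00 over all genes. In place of 8, a refit called 1 gene in all with control replicate 3 or NC replicate 3 dropped, 3 with NC replicate 1 dropped, 4 with control replicate 2 dropped and 5 with gag-pol replicate 1 dropped. It called 2, 5 and 2 with replicate number 1, 2 or 3 dropped. These totals can include genes outside the 8.

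**Figure D3:**
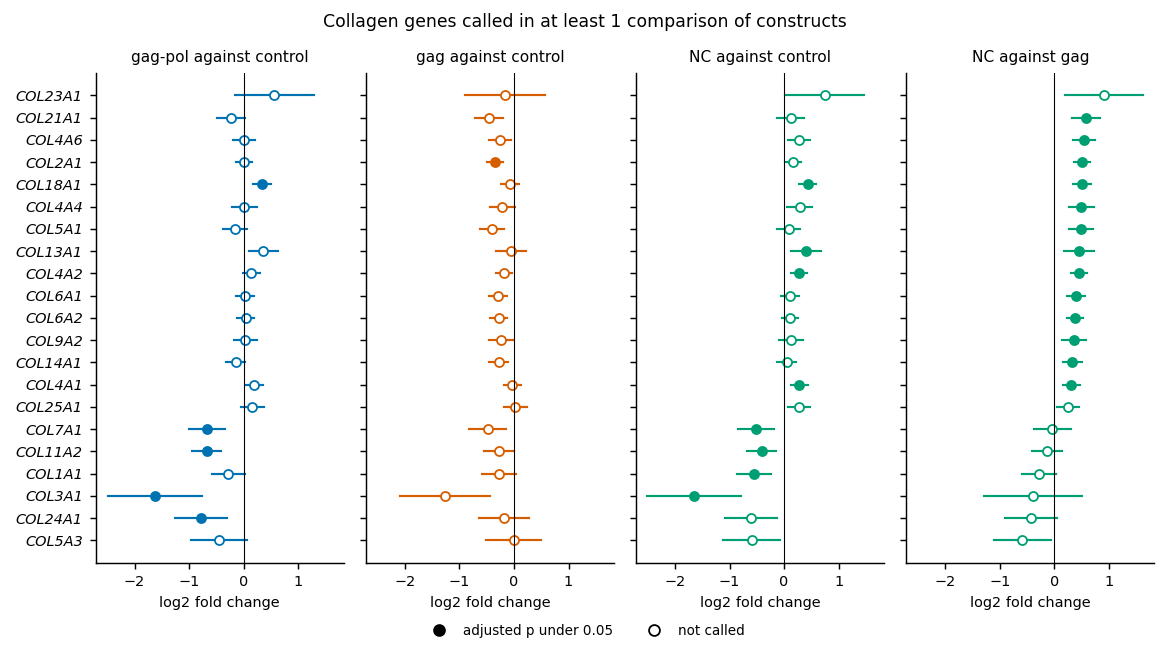
Fitted log2 fold changes of the 21 collagen genes (COL1A2 aside) called in at least 1 comparison of constructs, with 95% confidence intervals (lines). Filled points have an adjusted p under 0.05. In the panel of NC against gag the 13 filled points all lie to the right of 0, between 0.31 and 0.58.

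Of the 6 comparisons between a construct and another, NC against gag had the most calls. Relative to gag, NC had 13 of the 40 genes higher (32.5%) and 0 lower, against 8.76% and 8.12% of all genes. In either direction, edgeR had 16 genes at an unadjusted p under 0.05, and DESeq2 called 14, both without a share over all genes here. The 13 genes spanned the classes. They were COL4A1, COL4A2, COL4A4 and COL4A6 of basement membranes, the type VI genes COL6A1 and COL6A2, the fibrillar genes COL2A1 and COL5A1, the FACIT genes COL9A2, COL14A1 and COL21A1, and COL13A1 and COL18A1. All 13 were higher in each replicate number, and for COL2A1, COL4A6 and COL21A1 the groups did not overlap. Over all 40 genes the groups did not overlap for 4, and the other was COL8A2, uncalled and lower with NC. The share over all genes tested is not given here. The 13 were called by a fit that holds the replicate number, so their shared direction adds no separate evidence.

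COL2A1 had 3877, 5765 and 5412 normalized counts with gag and 5838, 7787 and 7697 with NC, a log2 difference of 0.51 ± 0.0691 (adjusted p = 0.000261, edgeR). COL21A1, a FACIT collagen of vessel walls, had 299, 571 and 564 with gag and 581, 720 and 792 with NC. Its difference was the largest of the 13, 0.58 ± 0.124 (adjusted p = 0.00362). COL4A6, a chain of the type IV network of epithelia and smooth muscle, had 714, 1142 and 1114 with gag and 1219, 1589 and 1451 with NC. It differed by 0.54 ± 0.0969 (adjusted p = 0.00120). COL6A1 had 7840, 14218 and 13550 with gag and 12240, 16740 and 16812 with NC, a difference of 0.39 ± 0.0800 (adjusted p = 0.00255). Replicate 1 was the lowest library for COL6A1 in every group, with 10763, 17100 and 15214 normalized counts in control. That of gag was also the smallest library of the series, and a part of depth was not tested. The smallest differences among the 13 were those of COL4A1, 0.31, and COL14A1, 0.33.

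The count depended on replicate 1. Without gag replicate 1 the count was 6, and without replicate number 1 in all groups, which leaves 2 libraries a group, it was 2. The median difference of the 40 genes between NC and gag was 0.34, 0.08 and 0.31 in replicate numbers 1, 2 and 3.

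Against gag, gag-pol had 5 genes higher and 0 lower (12.5% and 0%, against 3.03% and 3.42% of all genes; 13 genes at an unadjusted p under 0.05 in either direction by edgeR). These were COL18A1, COL2A1, COL4A2, COL6A1 and COL6A2, with log2 differences of 0.31 to 0.41. DESeq2 called 8 in either direction. The counts at an unadjusted p and by DESeq2 have no share over all genes here. Dropping control replicate 3 gave 9 genes, gag-pol replicates 1 and 3 gave 3 and 1, and gag replicate 1 or replicate number 1 gave 0. Between NC and gag-pol no gene of the 40 passed in edgeR, against 0.0873% of all genes. At an unadjusted p under 0.05 edgeR had 7, and DESeq2 called 0, again without a share over all genes. The medians of the 40 differed by 0.09 there.

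When gag-pol and NC together were compared with gag and control together, 16 genes differed, 11 higher (27.5%) and 5 lower (12.5%), against 13.1% and 11.6% of all genes. This contrast was chosen with earlier results of these data known. COL18A1 was higher by 0.42 ± 0.0563 on the log2 scale (adjusted p = 4.4e-05) and COL13A1 by 0.41 ± 0.0926. COL2A1, COL4A1, COL4A2, COL4A4, COL4A6, COL6A1, COL6A2, COL23A1 and COL25A1 were also higher, by 0.20 to 0.73. COL3A1, COL5A3, COL7A1, COL11A2 and COL24A1 were lower, with differences of -1.01 to -0.36. The -1.01 was that of COL3A1, which had -0.32 (adjusted p = 0.598, edgeR) without replicate number 3. COL5A3 passed in 5, COL23A1 in 5 and COL25A1 in 3 of the 15 refits on fewer libraries. The count was 10 and 9 without replicate numbers 1 and 3. COL23A1, the largest of the higher genes, is a transmembrane collagen with uneven libraries, 117, 446 and 137 normalized counts in control and 189, 397 and 531 with NC, and its adjusted p rose from 0.0412 to 0.115 with no filter on low counts.

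A test over the 4 constructs at once called 16 of the 40 genes (40%), against 20.6% of all genes. For 12 of the 16, gag had the lowest and NC the highest fitted level, and for the other 4 (COL3A1, COL7A1, COL11A2 and COL24A1) control was highest. Taken separately, gag was lowest in 75.0% of the 16 and NC highest in 75.0%. Over the 3538 genes of the table called by this test, gag was lowest in 26.9% and NC highest in 31.8%. The share of those genes with both at once is not given here. The count was 9 without gag replicate 1, and 3 and 10 without replicate numbers 1 and 3. For 19 of the 40 genes no comparison of constructs passed the threshold, among them COL4A3, COL4A5, COL5A2, COL12A1 and COL27A1. COL8A2, the short-chain gene of corneal basement membrane, was not called either. Its 3 NC libraries (6.15, 7.44 and 1.10 normalized counts) lay below its control libraries (8.30, 24.8 and 20.4), with an adjusted p = 0.0999 by edgeR.

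More collagen genes differed among replicate numbers than among constructs, and the same held for all genes tested (52.8% against 20.6%). Labels give the numbers 1 to 3 in each group. The design text of the series gives 3 independent passages, and the study's model included harvest date. The labels do not tie a number to a passage or a date. Of the 40 genes, 30 (75%) differed among replicate numbers, against 52.8% of all genes, and 24 (60%) were called and higher in replicates 2 and 3 than in replicate 1, against 19.8%. The median log2 difference of the 40 genes was 0.59 for replicate 2 minus replicate 1 and also 0.59 for replicate 3 minus replicate 1, where the medians over all genes were 0.00 and -0.01. In each construct taken alone, 29 or 30 of the 40 genes were higher in replicate 2 than in 1 and 33 to 37 were higher in replicate 3 than in 1. For 21 genes replicate 1 was the lowest library of its group in all 4 groups. These counts by construct and by group are not given over all genes tested, so they have no background here.

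All 6 type IV genes and both abundant type VI genes belonged to the 24. Over the 4 constructs COL6A2 had 3222 ± 457 normalized counts in replicate 1, 5711 ± 518 in replicate 2 and 6522 ± 726 in replicate 3 (SD, n = 4; adjusted p = 5.628e-10, edgeR). COL14A1, a FACIT collagen of mechanically loaded tissue, had 2836 ± 437, 4340 ± 548 and 5862 ± 341 (adjusted p = 3.83e-09). COL12A1, its relative in tendon and ligament, had 177 ± 35.0, 446 ± 91.1 and 386 ± 110.5 (adjusted p = 3.907e-05), a gene that no construct comparison called. The fibrillar genes were mixed. COL5A2 and COL5A3, minor chains of type V collagen, were lower in replicates 2 and 3 than in 1, COL5A3 with 149 ± 32.0, 87.6 ± 21.6 and 95.04 ± 34.4 (adjusted p = 0.00649). COL1A1, COL11A2, COL24A1 and COL9A1 were lower in replicate 2 and higher in replicate 3 than in 1. COL3A1 was 168 ± 148 in replicate 3, against 35.7 ± 15.2 in replicate 1.

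Marker lists and base composition were set beside these differences. The summed normalized count of the 12 fibroblast markers was 4832 to 7296 in replicate 1, 7885 to 9911 in replicate 2 and 7195 to 9671 in replicate 3. The sum was carried by FN1 and FBN1, with DCN, LUM, POSTN, THY1 and MFAP5 under 10 counts throughout. The tested markers did not move as one. FN1, FBN1 and TAGLN were higher in replicates 2 and 3 than in 1. ACTA2 was lower in both, with log2 differences of -0.21 and -0.66 (adjusted p = 0.000294, edgeR). PDGFRA differed by 0.06 and -0.56 (adjusted p = 0.0465, edgeR), and PDGFRB, with -0.11 and 0.45, was not called. By construct the sum was 5642 to 9287 for control, 5110 to 9754 for gag-pol, 4832 to 7885 for gag and 7296 to 9911 for NC, and 2 of the 6 tested markers, ACTA2 and FN1, were called in NC against gag. The HEK293 marker sum was 41884 to 51209 in replicate 1, 41672 to 59076 in replicate 2 and 36781 to 48128 in replicate 3, with wide overlap. By construct it was 36781 to 45320 for control, 41672 to 42285 for gag, 48075 to 49879 for gag-pol and 47139 to 59076 for NC, so the gag-pol and NC libraries lay above the others. Of the 9 HEK293 markers, 2 were called in gag-pol against control, 3 in NC against control, 3 in NC against gag and 0 in gag against control. The sum of the 4 cartilage markers was 1301 to 1408 for gag-pol and 942 to 1178 for control, with SOX9 called, and 990 to 1323 for gag and 1039 to 1299 for NC. Across 15369 genes, the difference of replicate 3 from 1 had a Spearman rho of 0.231 with GC content and 0.112 with transcript length. For replicate 2 minus 1 these were 0.158 and 0.145. Collagen transcripts had a median GC content of 54.9%, against 48.7% over the protein-coding genes. With a trend on GC content and length removed from each library, 29 genes differed among replicate numbers, 29 of them among the 30 called without that step. The part of these measures in the collagen differences was not tested.

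**Figure D4:**
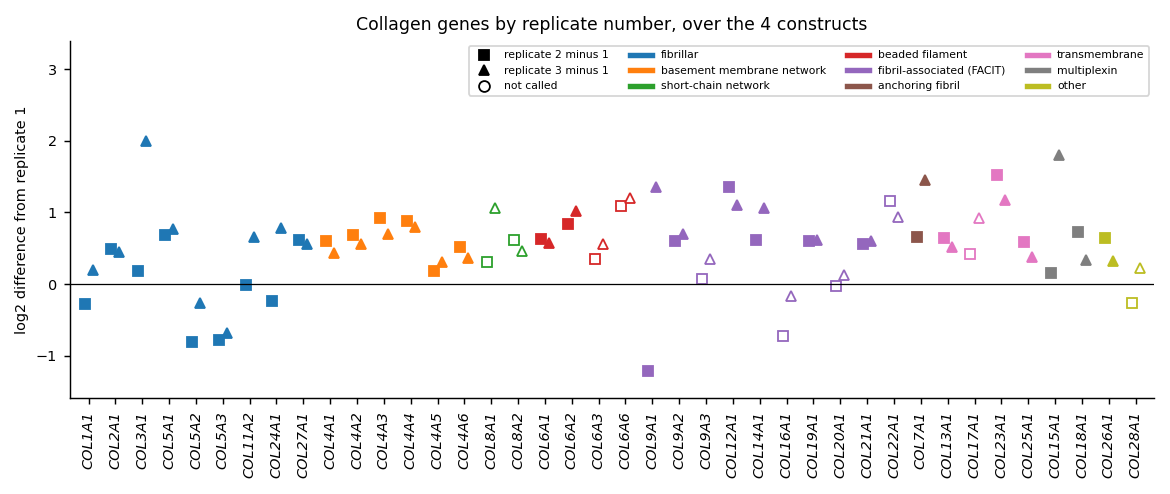
Fitted log2 difference of replicates 2 (squares) and 3 (triangles) from replicate 1, over the 4 constructs, for the 40 tested collagen genes other than COL1A2. Colors give the structural class, and open symbols mark genes whose adjusted p was not under 0.05. Most symbols lie above 0, near the median of 0.59, and COL5A2, COL5A3 and the uncalled COL16A1 have both symbols below 0.

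The genes that make, secrete, crosslink, bind and degrade collagen were taken from fixed lists of 72, of which 61 were tested. Against control, 3 were higher and 5 lower with gag-pol, 0 higher and 1 lower with gag, and 12 higher and 2 lower with NC. Over all genes tested, 5.48% were higher and 5.83% lower with gag-pol, 0.699% and 0.384% with gag, and 6.04% and 5.15% with NC, which is the background for the counts of each list too. As shares of the 61, the counts were 4.92% and 8.2%, 0% and 1.64%, and 19.7% and 3.28%. Of 18 genes of chain modification and folding, 1 was higher and 2 lower with gag-pol, 1 lower with gag, and 5 higher and 1 lower with NC. SERPINH1 (HSP47), the chaperone of the procollagen helix, rose with gag-pol and NC. It had 2559, 3499 and 2140 normalized counts in control, 3461, 4178 and 3172 with gag-pol, 2746, 3271 and 2367 with gag and 3288, 4638 and 2932 with NC. The log2 fold changes were 0.42 ± 0.0791 and 0.41 ± 0.0791 (adjusted p = 0.00200 and 0.00330, edgeR), with every replicate number higher. P4HA1, a prolyl hydroxylase subunit, rose by 0.35 with NC and P3H2, a prolyl 3-hydroxylase, fell by 0.44 on the log2 scale. PLOD2, a lysyl hydroxylase, fell by 0.31 with gag-pol and 0.38 with gag, and PLOD3, another, fell by 0.25 with gag-pol.

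In secretion, 1 of 9 tested genes passed with gag-pol and with NC. It was KLHL12, the adaptor of the ubiquitin ligase that enlarges COPII coats, with log2 fold changes of 0.43 ± 0.0981 and 0.39 ± 0.0983. Of 7 propeptide cleavage genes, ADAMTS2, the procollagen N-proteinase, rose by 0.45 ± 0.119 with NC. Of the 5 lysyl oxidases, which crosslink collagen, 1 was higher with gag-pol and 3 with NC. LOXL4 had 65.4, 86.1 and 64.5 normalized counts in control, 115, 162 and 112 with gag-pol, 109, 130 and 80.3 with gag and 117, 230 and 134 with NC. The gag-pol and NC libraries lay above every control library. Its log2 fold changes were 0.84 ± 0.225 and 1.12 ± 0.225 (adjusted p = 0.0179 and 0.00406, edgeR). LOXL2 rose by 0.47 and LOX by 0.37 with NC.

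Of the 5 tested fibril assembly partners, TNXB (tenascin X) fell by 0.54 with gag-pol and 0.51 with NC on the log2 scale, and FN1 (fibronectin) rose by 0.30 with NC. Among 11 receptors, ITGA10, an integrin chain of cartilage that binds collagen, had 75.8, 44.4 and 100 normalized counts in control and 21.2, 16.6 and 26.7 with gag-pol, a log2 fold change of -1.73 ± 0.383 (adjusted p = 0.00574, edgeR). MRC2, an endocytic collagen receptor, rose by 0.29 with NC. Of 6 tested degradation genes, PEPD, which splits proline dipeptides, fell by 0.38 with gag-pol and none passed with NC. In NC against gag, 15 of the 61 were higher and 1 lower (24.6% and 1.64%), against 8.76% and 8.12% of all genes. In place of 8 genes with gag-pol, refits called 5 in all with control replicate 2 or 3, or gag-pol replicate 1 or 3, dropped, and 0 and 4 with replicate number 1 or 3 dropped. In place of 14 with NC, they called 9 and 3 with control replicates 2 and 3 dropped, 5 and 8 with NC replicates 1 and 3 dropped, and 4, 6 and 6 with replicate numbers 1, 2 and 3 dropped.

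**Figure D5:**
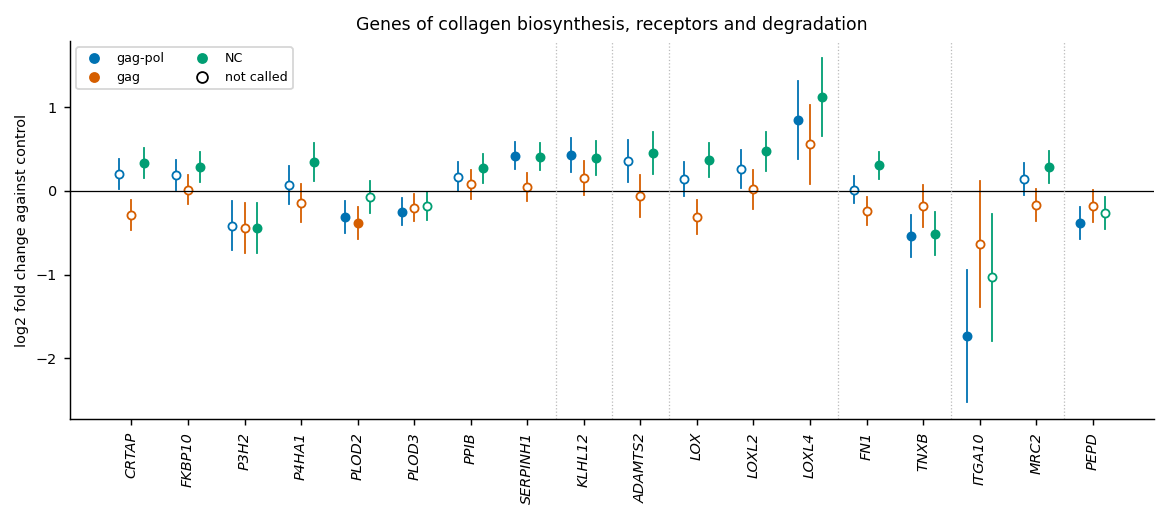
Log2 fold change against control, with 95% confidence intervals, of the 18 genes of collagen biosynthesis, receptors and degradation called in at least 1 comparison with control. Filled points have an adjusted p under 0.05 and dotted lines separate the lists. SERPINH1, KLHL12 and LOXL4 are filled and above 0 for gag-pol and NC, and TNXB is filled and below 0 for both.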

How the data were processed

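RNA from 12 HEK293 libraries (poly(A)-selected, paired-end) was mapped by the authors with STAR 2.7.3 to GRCh38.p13, sorted with SAMtools 1.8 and counted with featureCounts. The annotation release, strand setting and treatment of multimapping reads are not given in the sources used here, so overlapping genes may share counts: COL4A1 and COL4A2 overlap in GENCODE 44, as do COL18A1 and its antisense genes. The deposited values are raw counts per gene symbol, and 22923 of 26485 symbols matched 1 annotated gene. Groups and replicate numbers came from the labels, which do not say how the replicates were made. The design text of the series gives 3 independent passages, and the replicate number was taken to stand for them. The study calls them biological replicates.

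Genes needed a minimum count of 10 by edgeR's filterByExpr (4.0.16, R 4.3.3). TMM factors, robust quasi-likelihood fits with construct and replicate number on all 12 libraries, and Benjamini-Hochberg adjustment over 17176 genes followed, with a threshold of 0.05. The study's own model held harvest date and construct. Same-numbered libraries of different groups deviated together (correlation 0.138 to 0.539 in 18 pairs, against -0.498 to 0.072 in 36 pairs of different numbers), so the replicate number was kept as a block. Deviations were taken from group means and sum to 0 within a group. The range for different numbers is therefore not independent of that for same numbers. The steps were tested on simulated data. RPKM used the canonical transcript length of GENCODE 44. DESeq2 1.42.0, other normalization, filters and left-out libraries were alternatives.

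Members and lists were chosen with earlier results of these data known. Named genes were COL1A2, the collagen genes with an adjusted p under 0.05 in any test, the highest member of each class in control, pathway genes called against control (at most 3 per list and comparison) and annotated genes within 500 kb of PEG10. COL6A3 was named after its values were seen, and the plot of pathway genes shows all those called against control.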

Additional observations from a re-analysis of the deposited data

How the results depend on the processing

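Without the replicate block, no collagen gene other than COL1A2 was called in any comparison of constructs (0 for gag-pol, gag and NC against control, gag-pol against gag, NC against gag, the pair gag-pol and NC against the pair gag and control, and among the 4 constructs), nor any of the 61 genes of the pathway lists against control (0). COL1A2 then kept log2 fold changes of 3.70 (adjusted p = 0.0889, edgeR) for gag-pol and 3.749 (adjusted p = 0.0792) for gag, and -3.639 and -3.59 (adjusted p = 0.153 and 0.172) for NC against gag and gag-pol. All 48 single-gene calls among the 40 genes were lost without the block, and none changed sign under any setting tried. The share of all genes called is given for the main fit only, so the loss cannot be read as particular to collagen genes.

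With the block and all libraries kept, gag against control had 5 collagen genes with DESeq2, 5 with no filter and 4 with the GC and length trend removed (an alternative chosen after seeing the data), gag-pol against gag had 8 with DESeq2, and the pathway lists had 2 genes with gag and no filter. Of the 48 calls in 7 such settings, 3 of 336 values lost the call. COL1A2 has fewer than 10 counts in some libraries and gave no value when every library had to reach 10.

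With single libraries or replicate numbers left out, the counts ranged from 1 to 5 (gag-pol against control), 0 to 5 (gag), 1 to 8 (NC), 0 to 9 (gag-pol against gag), 2 to 16 (NC against gag), 0 to 0 (NC against gag-pol), 9 to 18 (both pairs), 3 to 20 (the 4 constructs) and 27 to 30 (replicate numbers). COL1A2 ranged from 3.349 to 4.268 (gag-pol), 3.466 to 3.981 (gag), -0.8535 to 0.4773 (NC), -0.3949 to 0.5705 (gag-pol against gag), -4.586 to -3.238 (NC against gag), -4.783 to -3.082 (NC against gag-pol) and -0.461 to 0.2909 (both pairs). The medians of the 40 genes ranged from -0.08805 to 0.00849, -0.2425 to -0.1028 and 0.01882 to 0.1612 for gag-pol, gag and NC, and the pathway counts from 0 to 11, 0 to 5 and 3 to 16. The cause of these changes was not tested. Fits with a replicate number left out rest on 2 libraries a group. For genes with few counts, such as COL8A2 and COL6A3, only large changes were detectable at this depth.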

Other observations

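Rows of the table beside the collagen genes carried few counts. The antisense genes COL18A1-AS1, COL18A1-AS2 and COL4A2-AS1 had at most 8, 4 and 11 counts in a library, while COL18A1 had at least 4258 normalized counts and COL4A2 at least 6151.
The pseudogene COL6A4P1 had 3 to 25 counts and COL6A4P2 had 4 to 22.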
